A study of Mus musculus with 6 samples.

Results

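The serpins (serine protease inhibitors) are a large family of proteins, many of which are made by the liver and secreted into plasma. All genes of the deposited expression table whose symbol starts with Serpin were taken, except *Serpinh1*, a collagen chaperone of the endoplasmic reticulum. They were 37 of the 16123 genes listed, and 36 of them are described here and enter all counts below. The samples were 6 RNAseq libraries of poly-A RNA from liver of young male mice, 3 from wild-type (WT) mice labelled C57BL/6Rj and 3 from mice homozygous for a *Txndc5* null allele (KO), labelled C57BL/6JRj-Txndc5<em2Mdnp>/Ciba. The deletion spans an exon of *Txndc5*, which encodes a protein disulfide isomerase of the endoplasmic reticulum, and the KO line came from 1 founder made by genome editing of zygotes. Both genotypes received a purified chow diet for 4 weeks and were fasted for 16 hours, and apart from the strain name the labels give no other difference between them. Each library was a pool of RNA from 3 mice, so that differences between mice of a pool were averaged before sequencing. The pools were numbered 1, 2 and 5 for WT and 2, 3 and 4 for KO.

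An inhibitory serpin presents an exposed stretch, the reactive loop, as bait to its target protease. When the protease cuts the loop, the serpin changes shape and traps the enzyme in a covalent complex, so each inhibitor molecule is used up once. Liver serpins restrain neutrophil elastase, thrombin, plasmin and the first proteases of complement, and some members lost the inhibitory function and carry hormones instead. In mice, the genes of alpha-1-antitrypsin and antichymotrypsin were multiplied by local duplication on chromosome 12, and the copies differ in the reactive loop, which takes part in deciding which protease is recognised.

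The coding bases of the loop are shown for the 5 copies of alpha-1-antitrypsin, because they carry most serpin reads of the liver and differ from each other there. They run from the hinge of the loop to the strand behind it and were located through the conserved pattern of the translated coding sequence. All lie in the last exon, on the minus strand of chromosome 12 (GRCm38, which is mm10), and are printed 5′ to 3′ with capitals at the positions where the 5 copies are not all the same.
Serpina1a, chr12:103853750-103853836: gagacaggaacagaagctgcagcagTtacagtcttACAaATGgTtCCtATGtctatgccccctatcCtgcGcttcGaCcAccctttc
Serpina1b, chr12:103728317-103728403: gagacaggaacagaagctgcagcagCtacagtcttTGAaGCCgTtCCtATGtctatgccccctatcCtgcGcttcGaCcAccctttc
Serpina1c, chr12:103895087-103895173: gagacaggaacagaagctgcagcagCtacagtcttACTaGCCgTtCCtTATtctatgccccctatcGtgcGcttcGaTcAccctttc
Serpina1d, chr12:103763755-103763841: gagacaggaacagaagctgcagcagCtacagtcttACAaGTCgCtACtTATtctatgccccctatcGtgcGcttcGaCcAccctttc
Serpina1e, chr12:103947093-103947179: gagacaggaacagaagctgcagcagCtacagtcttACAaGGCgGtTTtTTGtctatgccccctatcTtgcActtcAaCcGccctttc
Of these 87 bases, 18 differed among the copies, which is 20.7%. Between pairs of copies the loops were 86.2 to 94.3% identical, and the whole coding sequences were 96.3 to 98.5% identical over the bases aligned without a gap.

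The corresponding stretches of the 3 antichymotrypsin genes with the highest levels lie in the last exon on the plus strand. They are shown because the copies share the hinge and differ behind it. Capitals mark what follows the first 29 bases, which are the same in all 3 genes, up to the 3 last bases, which are again the same.
Serpina3k, chr12:104345263-104345352: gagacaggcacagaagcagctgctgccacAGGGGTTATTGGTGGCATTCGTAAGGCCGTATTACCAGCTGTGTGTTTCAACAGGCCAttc
Serpina3m, chr12:104393763-104393858: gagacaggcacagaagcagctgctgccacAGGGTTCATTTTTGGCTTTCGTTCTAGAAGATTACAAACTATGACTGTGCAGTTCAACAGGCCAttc
Serpina3n, chr12:104413442-104413537: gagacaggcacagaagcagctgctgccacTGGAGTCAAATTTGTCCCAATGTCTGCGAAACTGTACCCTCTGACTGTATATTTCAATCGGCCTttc
Here the loops were 70.8 to 82.2% identical and the coding sequences 83.5 to 91.99%. The likeness of the copies bears on the measurements. With reads of 100 bases, 58.5% of all stretches of that length in the *Serpina1c* transcript occurred also in another serpin gene. This share was 47.4% for *Serpina1a*, 26.3% for *Serpina1d*, 19.2% for *Serpina1b* and 14.8% for *Serpina1e*. For the *Serpina3* genes it was 6.09% or less, and it was 0 for all members outside these groups. How reads shared by copies were counted is not given in the sources used here, so the values of the single *Serpina1* copies are uncertain, above all those of *Serpina1a* and *Serpina1c*.

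Of the 36 genes, 21 lay on chromosome 12, from 103614786 to 104414329 of GRCm38, a span of 799.5 kb. Chromosome 13 held 6 members, chromosome 1 held 3 and chromosome 11 held 2, and 4 other chromosomes held 1 each. *Serpina3h* and *Serpina4-ps1* are annotated as pseudogenes. In the annotation *Serpina1d* lies inside the span of *Serpina1b*, and *Serpina3m* starts at the same base as *Serpina3k*, so these pairs overlap.

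The deposited table holds 1 value per gene and genotype, in reads divided by the size factor of the library. For weakly expressed genes, the mean of the WT and KO values matched the mean over all 6 libraries. The difference between the WT and KO values is shrunken toward 0, so a value is not the mean of the 3 libraries of its genotype. *Serpina3i*, for example, was listed at 0.888 in WT, where no reads were recovered. Replicate values of the strongly expressed genes were not recovered. The authors' own test columns were not used, so the differences of these genes are given as a description, with no test. As a check of the labels, *Txndc5* was listed at 2697 in WT against 90.8 in KO, 29.7-fold lower. The libraries held 44040160 to 46050030 clean reads, of which 62.19 to 65.69% mapped to a unique place. All 6 hepatocyte markers were present with a mean of 10 or more, and none of them differed by more than 1.5-fold.

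Serpin transcripts were a large part of the liver RNA. The 36 genes held 8.49% of the sum of all values in WT and 8.16% in KO. The 5 copies of alpha-1-antitrypsin made up 75.5% of the serpin sum in WT and 75.1% in KO, and the antichymotrypsin group 15.6% and 15.7%. The inhibitors of coagulation and complement made up 6.66% and 6.95%, and all other serpins the small remainder. Of the 36 members, 16 had a mean of 1000 or more, 19 of 100 or more and 27 of 10 or more. *Serpina1c* and *Serpina1e* ranked 4 and 5 among all genes by mean value and 5 and 6 per kilobase of transcript. Along the cluster on chromosome 12, levels per kilobase formed 2 high blocks. The *Serpina1* copies lay between 98344 and 240602 per kilobase in either genotype, and *Serpina3k* reached 146472 in WT and 132059 in KO. Between the *Serpina1* copies and *Serpina3k* the values were lower, from 0.331 per kilobase for *Serpina3b* in KO to 1896 for *Serpina11* in WT. No KO reads were recovered for *Serpina3b*, so its KO value is not a measured level. *Serpina3m* and *Serpina3n*, next to *Serpina3k*, were at 3042 and 7079 per kilobase in WT.

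**Figure D1:**
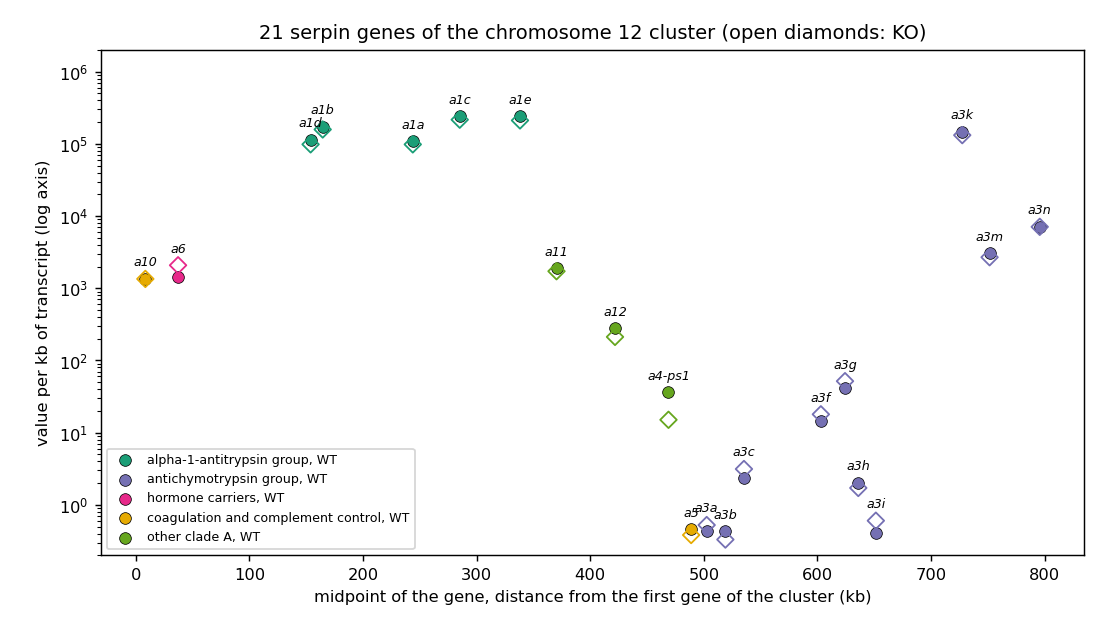
Value per kilobase of transcript (log axis) of the 21 serpin genes on chromosome 12 against the midpoint of each gene, given as distance in kb from the first gene of the cluster. Filled circles are WT and open diamonds KO, 1 value per genotype, coloured by group, with the prefix Serpin left out of the names. The *Serpina1* copies and *Serpina3k* stand highest, and the WT and KO marks of most genes overlap.

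Human alpha-1-antitrypsin mainly inhibits neutrophil elastase. Each of the 5 mouse copies had a slightly lower value in KO. The sum of all values in the table was also lower in KO, at 18532558 against 19773891 in WT. The 5 copies held 6.41% of this sum in WT and 6.13% in KO. *Serpina1a* was at 187000 in WT and 169643 in KO, a log2 difference (KO over WT) of -0.14. *Serpina1b* was at 245217 and 226877 (-0.11), and *Serpina1c* at 342607 and 307744 (-0.15). *Serpina1d* was at 162772 and 141993 (-0.20), and *Serpina1e* at 330587 and 290071 (-0.19). Because the copies share stretches as long as a read, they are not 5 separate measurements. Fewer cells of a type and less RNA per cell cannot be told apart in these bulk samples.

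The 5 copies also shared the sequence in front of the gene. Promoters were taken from RefSeq (GRCm38.p6), where 28 of the 36 members had an entry. *Serpina10*, *Serpina3h*, *Serpina3k*, *Serpina3m*, *Serpina4-ps1*, *Serpina6*, *Serpinb1a* and *Serping1* had none. The last 100 bases before the annotated start, on the minus strand, are shown for the 5 copies, with capitals at the letters GTTAAT, the half-site of the binding motif of hepatocyte nuclear factor 1.
Serpina1a, chr12:103863620-103863719: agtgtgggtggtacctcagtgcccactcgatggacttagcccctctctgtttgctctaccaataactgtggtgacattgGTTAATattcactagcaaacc
Serpina1b, chr12:103738190-103738289: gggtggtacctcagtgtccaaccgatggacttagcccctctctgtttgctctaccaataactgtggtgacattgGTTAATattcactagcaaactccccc
Serpina1c, chr12:103904951-103905050: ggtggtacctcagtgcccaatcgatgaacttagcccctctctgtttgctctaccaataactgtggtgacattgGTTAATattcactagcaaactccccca
Serpina1d, chr12:103773634-103773733: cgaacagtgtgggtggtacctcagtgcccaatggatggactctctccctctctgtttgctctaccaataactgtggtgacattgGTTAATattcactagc
Serpina1e, chr12:103956898-103956997: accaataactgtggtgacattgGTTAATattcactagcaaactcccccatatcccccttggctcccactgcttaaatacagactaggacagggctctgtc
Each copy held GTTAAT once, within a stretch of 38 bases that was the same in all 5 windows. This stretch begins at the first base of the *Serpina1e* window and ends at the last base of the *Serpina1d* window. Its length is thus set by the windows and is not the extent of the likeness. The distance of GTTAAT from the start differed, as the annotated starts differ. On either strand (GTTAAT or ATTAAC), the motif occurred in 7.10% of the 32851 promoters of the table over 300 bases, and in 2.51% within the last 100 bases before the start. Among the 28 members with an entry, 8 held it in the 300 bases, the 5 *Serpina1* genes, *Serpina3c*, *Serpina7* and *Serpinb8*. A match describes the sequence and says nothing of binding.

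The antichymotrypsin group comprised 10 genes, of which 5 had a mean of 10 or more. *Serpina3k*, a plasma inhibitor that binds tissue kallikrein, was at 241972 in WT and 218162 in KO (-0.15). *Serpina3m* was at 5074 and 4488 (-0.18). *Serpina3n*, known as an acute phase protein of mouse liver, was at 14760 and 14789 (0.00). *Serpina3g* had values of 83.5 and 105 (0.33) and *Serpina3f* of 29.8 and 36.7 (0.30). The 2 weaker copies thus had the higher value in KO and *Serpina3k* and *Serpina3m* the higher value in WT, all within 1.5-fold.

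Among the hormone carriers, *Serpina6* had the largest log2 difference of the 19 serpins with a mean of 100 or more. It encodes corticosteroid-binding globulin, the plasma carrier of glucocorticoids, and was at 2350 in WT and 3369 in KO, a log2 difference of 0.52, or 1.43-fold higher. The gene of the glucocorticoid receptor, *Nr3c1*, had values of 257 and 183 (-0.49). *Serpina7*, thyroxine-binding globulin, was weakly expressed, at 20.97 and 22.8 (0.12).

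The inhibitors of coagulation and complement differed little. Antithrombin (*Serpinc1*), the main inhibitor of thrombin, was at 49000 in WT and 46098 in KO (-0.09), and heparin cofactor II (*Serpind1*) at 6057 and 6372 (0.07). Alpha-2-antiplasmin (*Serpinf2*), which inactivates plasmin, was at 23344 and 20565 (-0.18). C1 inhibitor (*Serping1*) was at 31160 and 29949 (-0.06), and the protein Z-dependent inhibitor of factor X (*Serpina10*) at 2194 and 2178 (-0.01). Pigment epithelium-derived factor (*Serpinf1*), a family member without inhibitory function, was at 30517 and 26845 (-0.18).

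Of the remaining clade A genes, *Serpina11* was at 2772 and 2517 (-0.14). Vaspin (*Serpina12*), an adipokine that inhibits a kallikrein, was at 1030 and 782 (-0.40). *Serpina4-ps1*, a pseudogene, was at 49.2 and 20.4, a log2 difference of -1.27, or 2.41-fold lower in KO. Protease nexin-1 (*Serpine2*), an inhibitor of thrombin at cell surfaces, was at 109 and 131 (0.27). The clade B serpins act mostly inside cells. *Serpinb6a* was at 100 and 105 (0.07), *Serpinb1a*, an inhibitor of neutrophil proteases, at 59.0 and 54.1 (-0.12), and *Serpinb9*, an inhibitor of granzyme B, at 51.7 and 46.4 (-0.16). *Serpinb8* was at 16.7 and 13.3 (-0.33) and *Serpinb6b* at 29.3 and 19.7 (-0.58), which is 1.49-fold lower and just inside the limit of 1.5-fold.

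**Figure D2:**
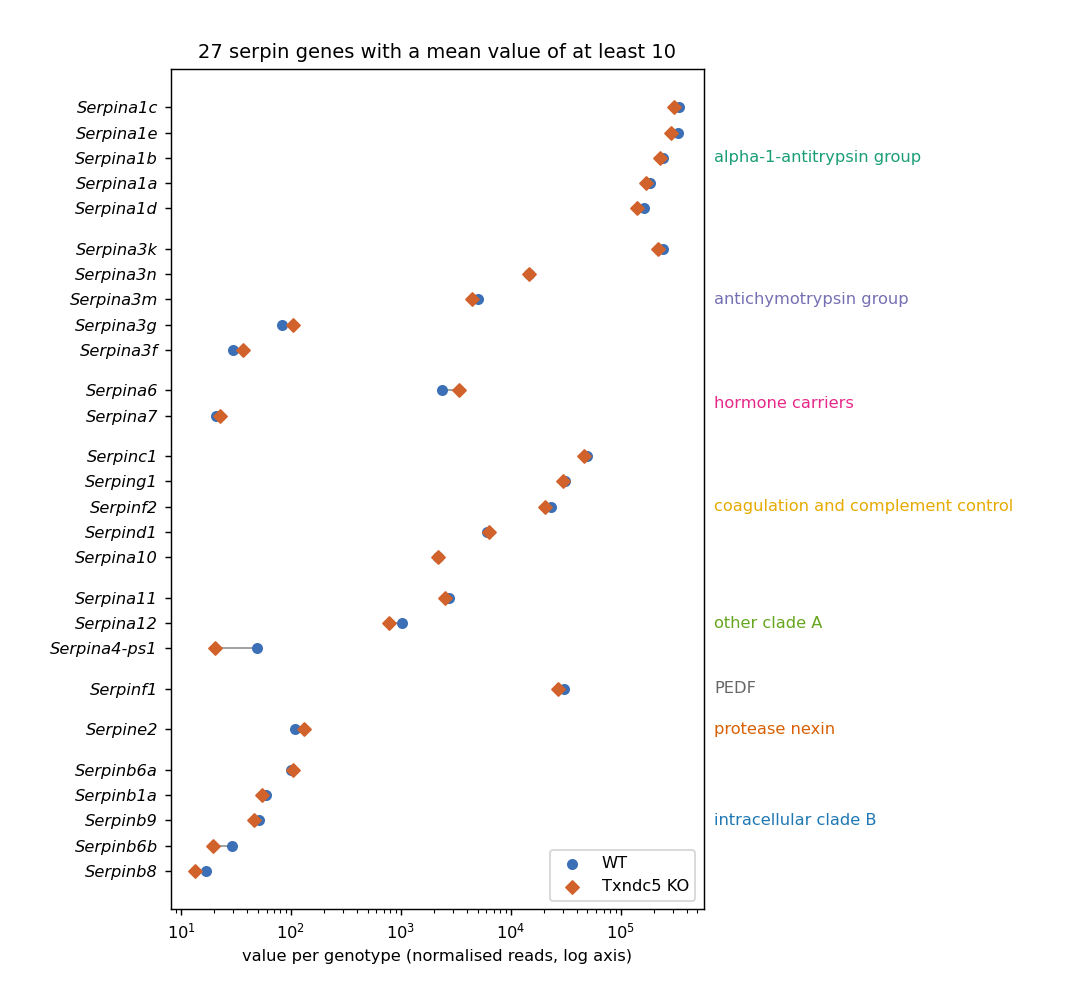
Values per genotype (normalised reads, log axis) of the 27 serpin genes with a mean of 10 or more, ordered by group and level. Circles are WT and diamonds KO, 1 value per genotype without error, joined by a line. The marks overlap for most genes and are clearly apart for *Serpina4-ps1*, *Serpinb6b* and *Serpina6*.

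Of the 27 described members with a mean of 10 or more, 1 was past 1.5-fold lower in KO (*Serpina4-ps1*) and 0 past 1.5-fold higher. Among all 11367 genes of that level, 1.57% were past the limit in the higher direction, 5.79% in the lower and 7.35% in either. The share of members in either direction was 3.70%, which is 1 gene. Most of these members were strongly expressed and most of the genes were not, so the shares are not matched for level. The median log2 difference of the 27 members was -0.14, with 8 higher and 19 lower in KO, beside -0.05 (quartiles -0.23 and 0.13) for all genes of that level. Of the 16 members with a mean of 1000 or more, 13 were lower in KO and their median was -0.14. For the 1765 genes of that level the median was -0.04, with 1018 lower. The 5 *Serpina1* copies, all lower in KO, are in both counts of members and both medians. They share stretches as long as a read, so these counts hold fewer separate measurements than genes.

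**Figure D3:**
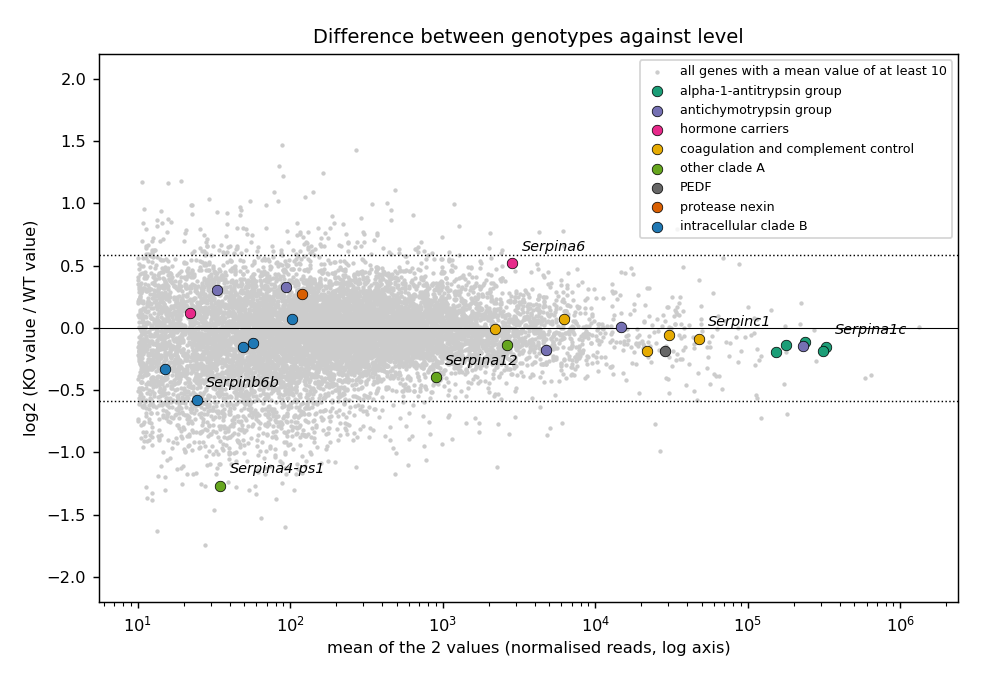
Log2 ratio of the KO over the WT value against the mean of both values (log axis) for the 11367 genes with a mean of 10 or more (grey) and the 27 serpin genes (coloured by group). Dotted lines mark 1.5-fold, and 4 genes beyond 2.2 on the vertical axis, none of them a serpin, are not drawn. Of the coloured points, *Serpina4-ps1* lies outside the dotted lines.

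Reads per library were recoverable for weakly expressed genes, because 6 times their mean over the libraries is a sum of whole reads, each worth the inverse of the size factor of its library. This gave reads for 16 of the 36 members. *Serpina3g*, *Serpinb6a* and *Serpine2* had several possible sets, and 17 members were too strongly expressed. The libraries are called a, b and c within a genotype by descending size factor, since the recovered reads carry no pool number. Libraries of 1 genotype differed from each other. KO a and WT a were over 2-fold above both in 12.1% and 22.2% of the 3303 genes with a sum of 60 to 400 normalised reads, against 1.06 to 1.998% for each of the other libraries. WT c was over 2-fold below both other WT libraries in 11.2% of these genes, WT b in 7.51% and KO c in 7.02%, against 1.91 to 3.57% for the other libraries. In the 7 serpins of this range, which had 97 to 351 reads each, KO a was the highest KO library for 6 and WT a the highest WT library for 7. The share of all 3303 genes with this order was not computed, so whether the order is particular to the serpins is not known.

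*Serpina4-ps1* had 17.5, 12.6 and 14.7 normalised reads in KO a, b and c and 120.8, 10.2 and 33.0 in WT a, b and c. WT a alone held 148 of its 233 reads, and WT b lay below all 3 KO libraries. The means were 14.9 ± 2.496 in KO and 54.7 ± 58.4 in WT (SD, n = 3). On log2 (normalised reads + 1), limma gave a difference of -1.19 with an SE of 0.72 and an adjusted p of 0.999, and it was -0.31 without WT a and -2.03 without WT b. WT a thus held most of the difference.

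*Serpinb6b* had 37.3, 9.65 and 3.39 in the KO libraries and 62.9, 22.7 and 11.01 in the WT libraries. Within each genotype it was highest in library a, and the spread within a genotype was larger than the difference between the genotypes. The recovered means differed 1.92-fold, lower in KO, more than the 1.49-fold of the shrunken values. The limma difference was -1.12 (SE 0.81, adjusted p = 0.999), and it ranged from -1.94 without KO a (unadjusted p = 0.021, adjusted p = 0.921) to -0.38 without KO c, with -1.68 without WT c and -0.48 without WT a. *Serpinb8* had 20.6, 5.79 and 11.3 in KO and 25.3, 11.4 and 15.9 in WT, a difference of -0.54 (SE 0.58, adjusted p = 0.999), which was -0.95 without KO a, -0.12 without KO b and -0.25 without WT a.
The other clade B serpins were more even across libraries. *Serpinb9* had 57.1, 52.1 and 28.2 in KO and 73.5, 47.8 and 35.5 in WT (-0.18, SE 0.43, adjusted p = 0.999). *Serpinb1a* had 49.5, 74.3 and 37.3 in KO and 65.3, 60.3 and 52.6 in WT (-0.19, SE 0.35, adjusted p = 0.999).

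*Serpina3f* had 52.6, 43.4 and 16.9 in KO and 38.4, 27.3 and 20.8 in WT, with a limma difference of 0.27 (SE 0.52, adjusted p = 0.999). KO c was the lowest of the 6 libraries and KO a the highest. *Serpina7* had 35.8, 13.5 and 20.3 in KO and 29.4, 27.3 and 4.89 in WT (0.39, SE 0.66, adjusted p = 0.999), and its values ranged more widely within the WT libraries than between the means of the genotypes. The 2 genotypes overlapped for all 7 members. Of the 3303 genes 5.69% had no overlap, and 7 genes are too few to differ from that share. No member passed an adjusted p of 0.05 in limma, and neither did any other of the 3303 genes (0%). At an unadjusted p under 0.05 limma called 0 of the 7 members and 1.63% of the genes.

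**Figure D4:**
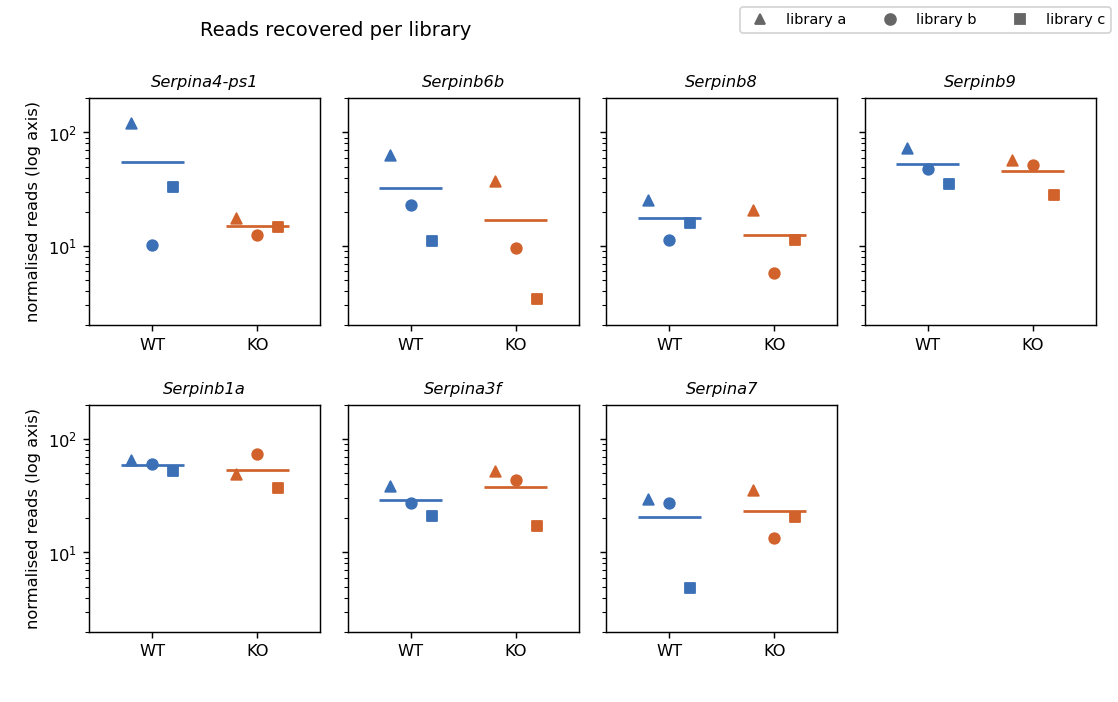
Normalised reads (log axis) of the 7 weakly expressed serpins in each of the 3 WT and 3 KO libraries. Triangles, circles and squares are libraries a, b and c of each genotype, and bars are means. The genotypes overlap in every panel, with WT a far above the other WT libraries for *Serpina4-ps1*.

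The 9 members below this range had 1 to 30 reads in all 6 libraries together, and none entered the comparison of genes with a sum of 60 to 400. *Serpina3c* had 10, 6 and 4 reads in KO a, b and c and 5, 3 and 2 in WT a, b and c, or 5.98 ± 1.56 against 3.31 ± 0.82 normalised reads (SD, n = 3). *Serpina3i* had 3, 1 and 3 reads in the KO libraries and none in the WT libraries. Taking 3 reads over the WT libraries as the most that a count of 0 allows, the KO mean of *Serpina3i* was 2.09-fold above that level. The counting error of its 7 KO reads was left out, so 2.09-fold is no lower limit. These 2 genes did not overlap between the genotypes, and the two-sided exact permutation test gave p = 0.1 for each, the smallest p that 3 libraries against 3 allow and the one that any gene without overlap gets. When limma was run on genes with a sum of 10 to 400, the difference of *Serpina3c* was 0.69 (SE 0.63, adjusted p = 0.999). Of the 4753 genes with a sum under 60, 4.88% did not overlap. *Serpina3a* had 4 reads, all in KO, and *Serpina3b* 4 reads, all in WT. The pseudogene *Serpina3h* had 23 reads, with a difference of -0.43 (SE 0.67, adjusted p = 0.999) in the same limma comparison. *Serpina5* (protein C inhibitor) had 5 reads, *Serpinb1c* 4, neuroserpin (*Serpini1*) 3 and *Serpinb9b* 1, and these were not in the limma comparison. The exact permutation test gave p = 0.4 for *Serpina3a* and *Serpina3b*, 0.3 for *Serpina3h* and 0.7 for *Serpina5*, *Serpinb1c* and *Serpini1*. For *Serpinb9b* that test cannot decide, as it had only 1 read.

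Genes that work together with the serpins were followed as lists. Of the proteases that serpins inactivate, 20 of 32 listed had a mean of 10 or more, and none was past 1.5-fold in either direction, with a median log2 difference of -0.07. The largest differences were those of *Masp1*, a complement protease (0.30), the membrane protease *St14* (0.29), coagulation factor IX (*F9*, -0.29) and the elastase *Cela2a* (0.25). Of these, *St14* (13.6 in WT and 16.7 in KO) and *Cela2a* (19.2 and 23.0) were weakly expressed. The 13 listed proteases with recovered reads summed to 52.6 to 109.5 normalised reads in the KO libraries and 46.5 to 84.4 in the WT libraries. Of 31 other protease inhibitors listed, 23 had a mean of 10 or more. Of these 1 was past the limit, *Tfpi2*, an inhibitor of the Kunitz type, with 111 in WT and 71.9 in KO (-0.63). The others of note by size were *Slpi* (0.34, weakly expressed at 23.6 in WT and 29.8 in KO), the macroglobulin *Mug2* (-0.29) and fetuin A (*Ahsg*, -0.27). The median was -0.05.

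The list of 13 partners and clearance receptors held 11 genes with a mean of 10 or more, with a median of 0.05 and none past the limit. Its largest differences were those of the receptor *Lrp2* (-0.51), *Nr3c1* (-0.49), *Lrp1*, which clears complexes of serpins and proteases (0.26), and vitronectin (*Vtn*, -0.19). *Lrp2* was weakly expressed, at 16.1 in WT and 11.3 in KO. Of 19 known regulators of serpin genes in liver, 1 was past the limit, the interleukin 6 receptor *Il6ra*, with 349 in WT and 533 in KO (0.61). It was followed by the interleukin 1 receptor *Il1r1* (0.44), the transcription factor *Cebpd* (0.26) and *Tgfb1* (-0.24), and the median of the list was 0.10.

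Markers of other cells of the liver were measured beside these values. Of the red cell genes 3 of 6 were past 1.5-fold higher in KO, and their summed value was 118830 in WT and 180430 in KO. For Kupffer cells and macrophages 1 of 6 was past the limit, higher in KO (median 0.28), and for stellate cells 1 of 7, also higher (median -0.14). None of 7 endothelial markers (median -0.04) and none of 5 cholangiocyte markers (-0.02) was past it. Of the 6 lymphocyte genes 2 had a mean of 10 or more, of which 1 was past the limit, lower in KO (median -0.56). All 6 summed to 36.7 to 65.5 normalised reads in the KO libraries and 67.8 to 99.0 in the WT libraries. The 5 neutrophil genes summed to 18.3 to 24.8 in KO and 10.6 to 19.3 in WT, and none reached a mean value of 10. The part of these cells in the serpin values was not tested.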

How the data were processed

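Liver RNA of 6 pools was sequenced. Per the labels, reads were aligned to mm10. The submitters' processing notes name HISAT2, StringTie, Cufflinks, GATK, Bowtie2 and RSEM, without roles. The authors deposited read counts and percent values of read filtering and mapping per library and, for 16123 genes, a length and a signal per genotype, in reads divided by size factors. Columns with the authors' log2 ratios and p-values from DESeq2 and the table of splicing events were not used. Log2 ratios were taken from the signals without a pseudocount. The means over all 6 libraries were split into whole reads for 8056 of the 8081 genes with a sum of up to 400 normalised reads. Genes with a sum of 60 to 400 were compared on log2 (normalised reads + 1) with limma 3.58.1 (trended variance, Benjamini-Hochberg adjustment over 3303 genes) in R 4.3.3. Both steps were tested on simulated data. For limma, the simulated differences were 8-fold and no library was set apart from the others of its genotype. That test says nothing of smaller differences. Other tests were two-sided exact permutation tests (scipy 1.17.1). P-values measure the spread between pools. Members with a mean of 10 or more and those in the limma comparison are named with values, and of the other lists at most 4 genes with the largest log2 ratio among those with a mean of 10 or more. Groups followed gene symbols and known function. Besides, 1 member and 1 gene of the partner list are not reported here and enter no count. Members and lists were chosen with earlier results of these data known. Sequences came from GENCODE M21 and RefSeq.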

Additional observations from a re-analysis of the deposited data

How the results depend on the processing

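No paired analysis was possible because the genotypes shared only 1 pool number and the recovered libraries carry none. Leaving out a library was possible only for the recovered reads. With log2 ratios centred on the median log2 ratio of genes whose mean is 1 or more (-0.05), the median of the 27 serpins moved from -0.14 to -0.092, and *Serpina10* changed sign. With pseudocounts of 1 and 0.1 no member changed sign. With a limit of 2-fold, *Serpina4-ps1* was still counted, and the shares of all genes were 0.897% in either direction, 0.158% higher and 0.739% lower. Without *Serpina1c* serpins held 6.76% of the summed values in WT and 6.50% in KO (log2 ratio -0.055, and -0.057 with *Serpina1c*). With the 10 genes of highest value removed, 4 of them serpins, it was 3.43% and 3.28% (-0.066). The median difference of the 7 weakly expressed members, -0.19, was -0.20 with a pseudocount of 0.5, -0.076 with libraries rescaled to their median, -0.098 without KO a and WT a (chosen after seeing the data), and between -0.43 (without WT c) and 0.036 (without KO c) with 1 library left out. With 1 library left out, *Serpina3f* lay between -0.036 (without KO a) and 0.75, *Serpina7* between -0.38 (without WT c) and 0.80, and *Serpinb1a* between -0.45 and 0.036 (without KO c). *Serpinb9* lay between -0.43 and 0.12 (without KO c), with 0.089 without WT a. No member reached an adjusted p of 0.05 in limma under any alternative. The causes of these movements were not tested. The lowest unadjusted p was 0.0079, for *Serpina4-ps1* without WT b (log2 difference -2.03, adjusted p = 0.9998, range of adjusted p over its alternatives 0.618 to 0.9999). When the model held libraries KO a and WT a apart by a covariate, 2 of the 3303 genes passed an adjusted p of 0.05, none of them a serpin, and 7.57% an unadjusted p of 0.05. Of the 7 serpins 2 passed that unadjusted limit. The unadjusted p in limma was 0.032 for *Serpinb6b* and 0.035 for *Serpina4-ps1*, with an adjusted p of 0.618 for both.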
